A study of Mus musculus with 12 samples.

Results

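The genes described here mark the epithelium of the pancreatic duct: Sox9, Onecut1, Krt7, Krt19, Muc1, Tspan8, Cftr and Spp1. Members were all probe sets that the array annotation pairs with 1 of these 8 symbols, which gave 15 of the 45101 probe sets on the array, for 7 genes. Spp1, which encodes osteopontin, was listed too and was not analysed here. The arrays hold RNA of wild-type (WT) and Sgpp2-/- (KO) C57BL6 mice on either of 2 diets, normal or high-fat, and the 4 groups have 3 Affymetrix mouse expression arrays each, 12 in all. Sgpp2 encodes sphingosine-1-phosphate phosphatase 2, and the series title names pancreatic islets, although the sample labels give no tissue, sex or age, no length of feeding and no design of the knockout allele. Whether each array stands for its own animal is not in the labels; p-values here speak only of the scatter among these samples, which may be technical.

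The pancreatic duct carries digestive enzymes from the acini to the gut and adds a fluid rich in bicarbonate. Its cells express keratins of simple epithelia, an apical mucin coat and the chloride and bicarbonate channel CFTR, and the transcription factors SOX9 and HNF6 (the product of Onecut1) shape the duct during development, when both are also found in the progenitors of endocrine cells. Islets released by digesting the pancreas usually keep some duct and acinar tissue attached. Several of these genes are not restricted to the duct: MUC1 also coats acinar cells, HNF6 is found in acinar cells, and Krt7 and Krt19 are also expressed by mesothelium.

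All values are log2 RMA values, 1 per probe set and array, on which a difference of 1 is a 2-fold difference in signal. A probe set was tested if it read above 5 on at least 3 arrays. That held for 35426 probe sets, and for 11 of the 15 duct probe sets, which cover 6 genes. Levels of different probe sets are not compared with each other, because probes differ in how well they bind. The targeted gene was read first: Sgpp2 lay between 10.995 and 11.17 on the 6 KO arrays and between 11.46 and 11.63 on the 6 WT arrays, with no overlap. Where this probe set lies with respect to the deletion was not given, so this check is of the signal alone. On component 1 of a principal component analysis, which held 26.8% of the variance, the KO arrays scored from 5.05 to 32.48 and the WT arrays from -34.21 to 2.74, WT high-fat array 2 being nearest to the KO side.

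The duct markers were then read for signal over the filter. Of the probe sets that were not controls, 35426 of 45037 passed it, and of the duct probe sets 11 of 15. Signal over the filter is thus common and does not show that duct cells were present. All 12 arrays read Krt7, Krt19, Muc1, Onecut1 (1 of its 2 probe sets), Sox9 (1 of its 3) and all 5 probe sets of Tspan8 above 5. Cftr was not above the filter with either of its 2 probe sets. RNA of acinar cells was present throughout, with 12 of 12 acinar markers above the filter and a summed signal, on the log2 scale, of 16.97 to 17.52 per array. Of 6 mesothelial markers, Upk3b, Wt1 and Lrrn4 were not above the filter. Msln, Gpm6a and Upk1b were above it, with means of 9.48, 9.46 and 5.05. Of 7 macrophage markers, Itgam was not above the filter and the rest were. In RNA from whole tissue, fewer cells of a type and less RNA per cell cannot be told apart.

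The stretches upstream of Tspan8 and Muc1 are shown, because, among the duct probe sets that passed the filter, these 2 genes had the smallest unadjusted p in the comparisons of genotype and of diet. Each run is the 250 bases before the gene's start, 5′ to 3′ on the gene's strand, from RefSeq on GRCm38.p6, and both genes lie on the plus strand.
Tspan8, chr10:115817034-115817283: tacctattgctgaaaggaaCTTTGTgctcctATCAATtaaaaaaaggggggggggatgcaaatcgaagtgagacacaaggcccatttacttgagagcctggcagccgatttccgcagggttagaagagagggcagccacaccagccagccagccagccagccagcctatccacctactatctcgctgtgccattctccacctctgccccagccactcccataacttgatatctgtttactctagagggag
Muc1, chr3:89228806-89229055: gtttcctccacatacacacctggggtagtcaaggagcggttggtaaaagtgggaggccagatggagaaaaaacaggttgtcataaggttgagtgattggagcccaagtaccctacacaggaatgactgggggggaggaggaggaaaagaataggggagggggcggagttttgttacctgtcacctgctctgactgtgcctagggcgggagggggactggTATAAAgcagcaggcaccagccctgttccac

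Capitals mark matches to short motifs searched on both strands. Tspan8 holds CTTTGT, the reverse complement of the SOX form ACAAAG, at -231 from its start, and ATCAAT, the reverse complement of the ONECUT core ATTGAT, at -219, with no overlap between them. Muc1 holds the TATA box letters TATAAA at -31. Of 32851 promoters in the same table, cut to the same length, 16.5% hold ACAAAG, 6.72% hold ATTGAT and 12.4% hold TATAAA on either strand. The other SOX form searched, ACAATG (10.7% of all promoters), was not in the windows of Tspan8, Muc1, Krt7, Onecut1 or Cftr, the 5 genes of the 7 with a promoter in the table. These matches describe letters and not binding.

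No duct probe set passed the test in any of the 7 comparisons made, of genotype within each diet and averaged over both, of diet within each genotype and averaged over both, and of their interaction. The test was limma's moderated test over all 12 arrays, with Benjamini-Hochberg adjustment over all 35426 probe sets and a threshold of 0.05. Each comparison is set below against the share of all probe sets that it called. The comparisons share arrays, so their values are not independent of each other.

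**Figure D1:**
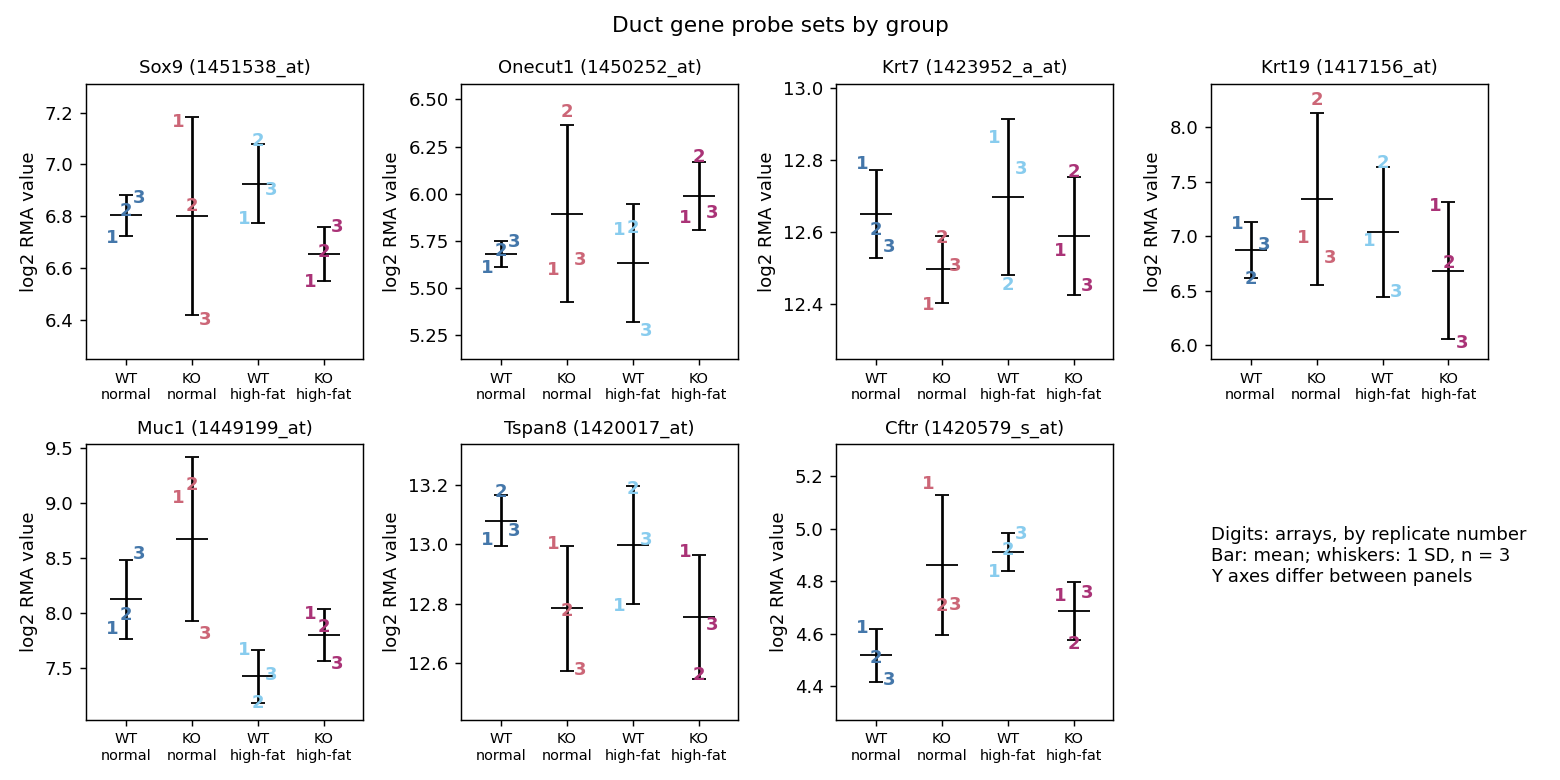
Log2 RMA values (y axis, a different range in each panel) of the brightest probe set of each of 7 duct genes in the 4 groups (x axis). Digits are single arrays by replicate number, horizontal bars are group means and whiskers 1 SD (n = 3). The Muc1 arrays of the high-fat diet lie between 7.18 and 7.99, and KO normal array 2 is the highest array for Krt19, Muc1 and Onecut1.

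Among the transcription factors, Sox9, which holds duct cells in their identity, was read on probe set 1451538_at at 6.72, 6.82 and 6.87 on the WT normal arrays and at 7.16, 6.84 and 6.40 on the KO normal arrays. On the high-fat diet it read 6.79, 7.09 and 6.90 in WT and 6.55, 6.66 and 6.76 in KO. The KO normal arrays spread to both sides of all WT normal arrays, while on the high-fat diet every KO array lay below every WT array. That difference was -0.27 on the log2 scale (SE 0.16, limma adjusted p = 0.458). Averaged over both diets the KO difference of Sox9 was -0.14, with a 95% interval from -0.39 to 0.11 (adjusted p = 0.455).

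The other probe sets of Sox9 were dim. Probe set 1433889_at was above 5 on 3 arrays, with all values between 4.79 and 5.10, and its KO difference averaged over both diets was 0.01 (SE 0.06, adjusted p = 0.955). Over the 12 arrays it correlated with 1451538_at at r = -0.07. Probe set 1424950_at read 3.61 to 4.11 and did not pass the filter. With no filter its KO difference was -0.17 among high-fat arrays (adjusted p = 0.542) and 0.13 among normal-diet arrays (adjusted p = 0.544). On the high-fat diet its KO arrays all lay below the WT arrays, where 16.8% of all tested probe sets had groups that did not overlap.

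Onecut1, the gene of HNF6, read 5.61, 5.69 and 5.74 on the WT normal arrays and 5.60, 6.43 and 5.65 on the KO normal arrays with probe set 1450252_at. On the high-fat diet the values were 5.81, 5.82 and 5.27 in WT and 5.87, 6.20 and 5.90 in KO. KO array 2 was the highest of its group on both diets, and on the high-fat diet every KO array lay above every WT array. The KO difference was 0.21 (SE 0.21, adjusted p = 0.588) among normal-diet arrays and 0.35 (SE 0.21, adjusted p = 0.462) among high-fat arrays, and averaged over both it was 0.28, with a 95% interval from -0.05 to 0.61 (adjusted p = 0.239). Without KO normal array 2 the normal-diet difference of Onecut1 was -0.06. The second probe set, 1421447_at, read 3.43 to 3.89 and was not tested.

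The keratins build the intermediate filaments of the duct cell, with Krt7 encoding a type II and Krt19 a type I chain. Krt7 read 12.79, 12.60 and 12.56 on the WT normal arrays, 12.40, 12.58 and 12.51 on the KO normal arrays, 12.86, 12.45 and 12.78 on the WT high-fat arrays and 12.55, 12.77 and 12.45 on the KO high-fat arrays. Every group overlapped every other. The KO difference of Krt7 averaged over both diets was -0.13, with a 95% interval from -0.32 to 0.06 (adjusted p = 0.351), and the high-fat difference averaged over both genotypes was 0.07, from -0.12 to 0.26 (adjusted p = 0.786). Its SE was close to the median SE of a difference between 2 groups over all probe sets, 0.12 against 0.13, so that these intervals bound a Krt7 difference in either direction more closely than those of Krt19 or Muc1.

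Krt19 was far more variable between arrays of a group. It read 7.11, 6.604 and 6.92 on the WT normal arrays, 6.98, 8.25 and 6.80 on the KO normal arrays, 6.95, 7.67 and 6.49 on the WT high-fat arrays and 7.27, 6.75 and 6.03 on the KO high-fat arrays. The highest and the lowest of the 12 values were both KO arrays. The SE of a Krt19 difference was 0.41, or 3.19 times the median over all probe sets. The KO difference was 0.47 on the normal diet (adjusted p = 0.534), which became 0.01 without KO normal array 2, and -0.35 on the high-fat diet (adjusted p = 0.719). The difference of these differences, the interaction, was -0.82 (SE 0.58, adjusted p = 1).

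Muc1, a transmembrane mucin of the apical surface, had the smallest unadjusted p for diet among the duct probe sets that passed the filter. It read 7.85, 7.98 and 8.53 on the WT normal arrays and 9.04, 9.16 and 7.81 on the KO normal arrays. On the high-fat diet it read 7.66, 7.18 and 7.43 in WT and 7.99, 7.87 and 7.54 in KO. In WT every high-fat array lay below every normal-diet array, while in KO the diets overlapped through KO normal array 3. The high-fat difference was -0.70 in WT (SE 0.31, unadjusted p = 0.0448, adjusted p = 0.434) and -0.87 in KO (SE 0.31, unadjusted p = 0.0164, adjusted p = 0.477).

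Averaged over both genotypes, the high-fat difference of Muc1 was -0.79, with a 95% interval from -1.27 to -0.30 (unadjusted p = 0.00403, adjusted p = 0.153, range over 22 alternatives 0.044 to 0.295). The adjusted p passed the threshold only without KO normal array 3, where the difference was -1.001 (adjusted p = 0.044). The KO difference averaged over both diets was 0.46, with a 95% interval from -0.02 to 0.94 (adjusted p = 0.192, range over 22 alternatives 0.0299 to 0.344), and it too passed only without that array (0.68, adjusted p = 0.0299). The interaction was -0.17 (SE 0.44, adjusted p = 1).

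**Figure D2:**
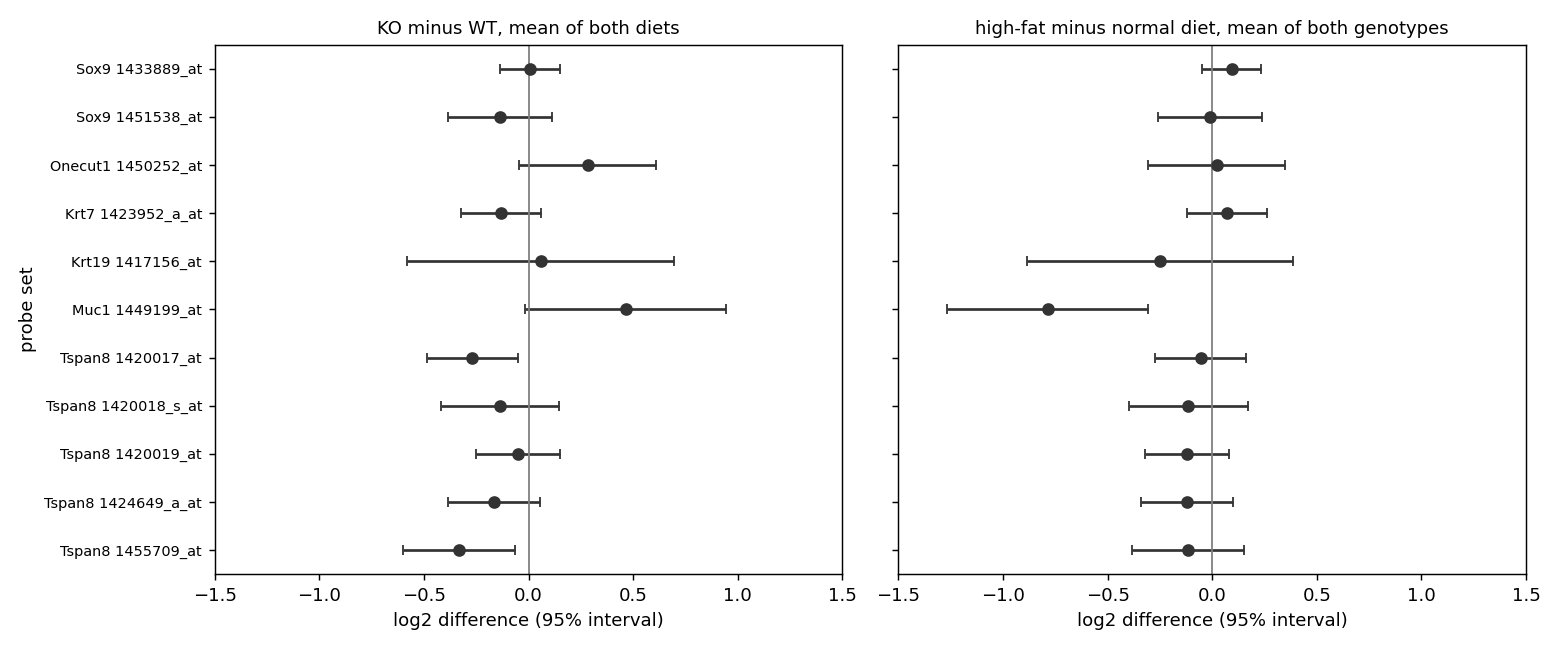
Log2 differences (x axis) of the 11 tested duct probe sets (y axis) between KO and WT averaged over both diets (left) and between the high-fat and the normal diet averaged over both genotypes (right). Points are limma estimates from 12 arrays and bars unadjusted 95% intervals; those of Muc1 for diet (-1.27 to -0.30) and of 2 Tspan8 probe sets for genotype exclude 0, and none of them passed after adjustment.

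Acinar markers varied with Muc1 over the arrays. The mean deviation of the 12 acinar markers from their own means was highest on KO normal arrays 2 and 1, at 0.36 and 0.31, and lowest on WT high-fat array 2, at -0.42, the arrays on which Muc1 was highest and lowest. Over the 12 arrays Muc1 and this mean deviation correlated at Pearson r = 0.834 (permutation p = 0.00079, Benjamini-Hochberg adjusted p = 0.0695 over 88 relations of members with marker lists) and Spearman rho = 0.58 (permutation p = 0.0507, adjusted p = 0.743). Without KO normal array 2 and WT high-fat array 2, the arrays farthest from the median of the acinar measure, r was 0.685, and after removing the group means it was 0.808. The arrays share their normalization, and the relation was chosen from the 88 after their values had been seen.

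No acinar marker passed the test in any comparison. In KO their high-fat mean was lower than the normal-diet mean for 12 of 12 markers, with a median difference of -0.22 (52.2% of all probe sets had a higher high-fat mean), and on the normal diet 12 of 12 (11 of 12 after cyclic loess) had a higher mean in KO than in WT, against 41.6% of all probe sets, with a median of 0.26. In WT, where Muc1 differed by -0.70 between the diets, the median high-fat difference of the acinar markers was -0.03. Single acinar markers ranged there from -0.65 to 0.44, with 9 lower and 3 higher. The brightest acinar marker, Ctrb1, had a mean of 14.63, and whether such bright probe sets understate differences was not tested. On the high-fat diet 9 of 12 acinar markers had a higher mean in KO, with a median of 0.05, and 5 of 12 after cyclic loess. Their summed signal, on the log2 scale, ranged from 17.10 to 17.30 on the WT normal arrays, 17.29 to 17.52 on the KO normal arrays, 16.97 to 17.31 on the WT high-fat arrays and 17.18 to 17.25 on the KO high-fat arrays. The part of acinar RNA in the Muc1 values was not tested.

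Tspan8, a tetraspanin of the cell membrane, had the smallest unadjusted p for genotype among the duct probe sets that passed the filter. Probe set 1420017_at read 13.01, 13.18 and 13.05 on the WT normal arrays and 13.00, 12.77 and 12.58 on the KO normal arrays. On the high-fat diet it read 12.79, 13.19 and 13.01 in WT and 12.97, 12.56 and 12.73 in KO. On the normal diet every KO array lay below every WT array, the nearest by 0.02, and on the high-fat diet the groups overlapped. Averaged over both diets the KO difference was -0.27, with a 95% interval from -0.49 to -0.05 (unadjusted p = 0.0198, adjusted p = 0.109, range over 22 alternatives 0.0591 to 0.231).

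Probe set 1455709_at of Tspan8 read 8.29, 8.53 and 8.50 on the WT normal arrays, 8.24, 8.37 and 7.84 on the KO normal arrays, 8.13, 8.28 and 8.69 on the WT high-fat arrays and 8.23, 7.93 and 7.82 on the KO high-fat arrays. The genotypes overlapped on both diets. Its KO difference averaged over both diets was -0.33, with a 95% interval from -0.60 to -0.07 (unadjusted p = 0.0191, adjusted p = 0.107, range over 20 alternatives 0.0818 to 0.221). The other 3 probe sets gave -0.17 (1424649_a_at, adjusted p = 0.305), -0.14 (1420018_s_at, adjusted p = 0.513) and -0.05 (1420019_at, adjusted p = 0.748). All 5 probe sets had a lower mean in KO, except that 1420019_at was at 0.00 after median centring or without WT high-fat array 2. The probe sets are annotated to the same gene and were read on the same arrays, correlating at r between 0.571 and 0.942. They are not 5 separate observations. The high-fat difference of Tspan8 averaged over both genotypes lay between -0.12 and -0.06 over its 5 probe sets, with no adjusted p under 0.608.

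Cftr, the apical chloride and bicarbonate channel, stayed at the lower end of the scale. Probe set 1420579_s_at read 4.62, 4.51 and 4.42 on the WT normal arrays, 5.17, 4.71 and 4.71 on the KO normal arrays, 4.83, 4.92 and 4.98 on the WT high-fat arrays and 4.74, 4.56 and 4.76 on the KO high-fat arrays. Only KO normal array 1 exceeded 5. With no filter its KO difference was 0.35 among normal-diet arrays (unadjusted p = 0.017, adjusted p = 0.177) and -0.22 among high-fat arrays (adjusted p = 0.476). In the same fit its high-fat difference was 0.39 in WT (unadjusted p = 0.00837, adjusted p = 0.308) and -0.18 in KO (adjusted p = 0.766). Probe set 1427767_a_at read 3.34 to 3.65, and its KO differences were -0.06 (adjusted p = 0.685) and 0.17 (adjusted p = 0.388), opposite to the first in sign on both diets.

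Counted over the 11 tested duct probe sets, genotype on the normal diet called 0, against 1.34% of all probe sets, and 0 had an unadjusted p under 0.05, against 21% of all. On the high-fat diet 0 of 11 were called, against 0.271% of all, and 0 had an unadjusted p under 0.05, against 14.8%. Averaged over both diets 0 of 11 were called, against 8.39% of all, and 2, both of Tspan8, had an unadjusted p under 0.05, against 28.1%. Groups did not overlap for 1 duct probe set on the normal diet (31.3% of all probe sets) and for 2 on the high-fat diet (16.8%). The median over the 11 duct probe sets averaged over both diets was -0.13, with 5 of the 11 from Tspan8. With 1 probe set for each of the 6 genes the median was -0.04 (3 higher, 3 lower), as over all probe sets, and 0.01 after cyclic loess and 0.02 after median centring.

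For diet, 0 of 11 duct probe sets were called in WT, against 0.0508% of all, and 0 in KO, against 0%. The average over both genotypes called 0 of 11, against 0.178% of all. At an unadjusted p under 0.05 there was 1 of the 11 tested duct probe sets, that of Muc1, in each of these comparisons, against 11.2%, 8.4% and 13.9% of all. In WT the groups did not overlap for 1 of 11 (Muc1), against 15.7% of all, and in KO for 0 of 11, against 13.3%. The interaction called 0 of 11, against 0% of all, and 0 had an unadjusted p under 0.05, against 4.99%.

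The order of the group means differed from gene to gene. Sox9 (1451538_at) was highest in WT high-fat and lowest in KO high-fat. Onecut1 ran from KO high-fat down to WT high-fat, Krt7 from WT high-fat to KO normal, Krt19 from KO normal to KO high-fat, Muc1 from KO normal to WT high-fat and Tspan8 (1420017_at) from WT normal to KO high-fat. Neighbouring groups in these orders were closer than the larger of their SDs, except for Muc1 between KO high-fat and WT high-fat (0.38 against 0.24) and Tspan8 between WT high-fat and KO normal (0.2128 against 0.2108), and the values of all neighbouring groups overlapped.

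KO normal array 2 was the highest of the 12 arrays for 3 of the 6 genes with a tested probe set, Krt19, Muc1 and Onecut1, taking the brightest probe set of each. Among all tested probe sets 4.22% were highest on that array. The array was picked for this count because these genes were highest there, so setting the shares side by side is no test. The remaining genes were highest elsewhere: Sox9 on KO normal array 1, Krt7 on WT high-fat array 1 and Tspan8 on WT high-fat array 2. Between different duct genes, the correlation over the 12 arrays ranged from -0.45 to 0.607 in 15 pairs.

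**Figure D3:**
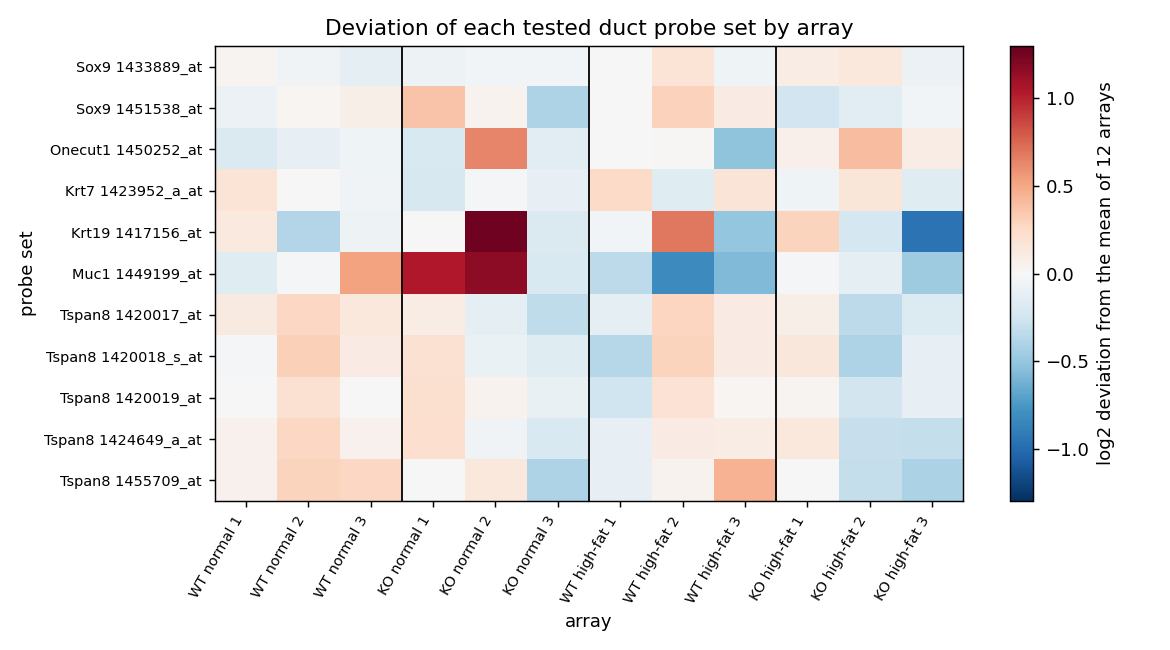
Deviation of each of the 11 tested duct probe sets (rows) from its mean over the 12 arrays (columns), in log2 units by colour, with black lines between groups. Krt19, Muc1 and Onecut1 are high on KO normal array 2, and the 5 Tspan8 probe sets vary together.

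Krt7 correlated with several marker lists to a like degree. Its correlation with the mean deviation of 8 β-cell markers was r = 0.681 (permutation p = 0.0102, adjusted p = 0.446 over the 88 relations) with rho = 0.776 (permutation p = 0.00408, adjusted p = 0.359). It was 0.661 without the 2 farthest arrays and 0.734 after removing the group means. With the markers of delta and PP cells r was 0.666, with those of alpha cells 0.604, of endothelial cells 0.564 and of macrophages 0.535, none with an adjusted p under 0.446. Without the 2 farthest arrays of each list these were 0.567, 0.432, 0.281 and 0.33. After removing the group means they were 0.683, 0.69, 0.297 and 0.53. After adjustment no relation of a duct probe set with a marker list passed.

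Genes were ranked by their correlation with the mean deviation of the brightest tested probe set of the 6 duct genes over the 12 arrays. The deviations were not scaled, so Muc1 and Krt19, with SDs of 0.61 and 0.57 over the arrays, weighed most. The ranking ran over 15237 genes less the members. In so large a search over 12 arrays, high correlations arise without any relation, and none was tested. The highest were Acrv1 (r = 0.867), Gsta3, a glutathione S-transferase (0.849), the transcription factor gene Nfe2l3 (0.845), Tinag (0.807), AA986860 (0.806) and Urah (0.768). Acrv1 and Tinag were dim, with means of 5.32 and 5.04. The mean deviation of the duct genes was highest on KO normal array 2, at 0.49, and lowest on KO high-fat array 3, at -0.28. Without KO normal array 2 the correlations of the 6 genes lay between 0.625 and 0.807, and without both of these arrays between 0.376 and 0.754. After removing the group means the correlations of these 6 genes lay between 0.782 and 0.886.

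Other genes listed for the duct were read on their brightest probe sets in 5 lists. Their signal need not come from duct cells, and which cells gave it was not tested. None of the 51 tested genes passed in any of the 7 comparisons, beside the shares of all probe sets given above. Of all probe sets 41.4% had a higher mean in KO averaged over both diets. The list medians that follow moved with the scaling of the arrays, and those after median centring are given beside them. Of 8 transcription factor genes tested, 2 had a higher and 6 a lower mean in KO averaged over both diets, with a median of -0.11 (-0.06 after median centring). Gata6, of early pancreas development, differed by -0.33 (adjusted p = 0.0524), Foxa2, a pioneer factor of endoderm, by -0.26 (adjusted p = 0.0591) and Sox4 by 0.44 (adjusted p = 0.136), while Glis3 differed by 0.14 for the high-fat diet (adjusted p = 0.465).

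Of 11 genes of fluid and bicarbonate transport, 3 had a higher and 8 a lower mean in KO, with a median of -0.10 (-0.05 after median centring). The chloride and bicarbonate exchanger Slc4a2 differed by -0.26 (adjusted p = 0.108) and the apical scaffold gene Slc9a3r1 by 0.18 (adjusted p = 0.0911). For the high-fat diet the potassium channel Kcnn4 differed by 0.45 (adjusted p = 0.199) and the sodium, potassium and chloride cotransporter Slc12a2 by 0.19 (adjusted p = 0.338). Of 11 epithelial keratin and junction genes, 3 had a higher and 8 a lower mean in KO, with a median of -0.12 (-0.06 after median centring). Epcam, an adhesion molecule of epithelia, differed by -0.18 (adjusted p = 0.0784), the E-cadherin gene Cdh1 by 0.15 (adjusted p = 0.0976), Cd24a by 0.17 (adjusted p = 0.12) and Krt18, a type I keratin, by -0.15 (adjusted p = 0.217).

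All 7 cilia and tubule genes had a lower mean in KO averaged over both diets, but only 4 of 7 after cyclic loess or median centring of the arrays, with a median of -0.08 against -0.04 over all probe sets (0.00 after cyclic loess and -0.03 after median centring). Ift88, of transport along cilia, differed by -0.21 (adjusted p = 0.0703), the kinesin gene Kif12 by -0.36 (adjusted p = 0.125) and Bicc1 by -0.23 (adjusted p = 0.14), and Dcdc2a differed by -0.16 for the high-fat diet (adjusted p = 0.455). Of 14 surface and secreted proteins, 9 had a higher and 5 a lower mean in KO, with a median of 0.07 (10 and 4 with 0.12 after cyclic loess, and 11 and 3 with 0.12 after median centring). The trefoil peptide gene Tff2 differed by 0.47 for genotype (adjusted p = 0.0771) and by -0.60 for the high-fat diet (adjusted p = 0.125). Anxa3 differed by -0.26 for genotype (adjusted p = 0.063), the Notch ligand gene Jag1 by 0.30 (adjusted p = 0.126) and the mucin gene Muc20 by 0.19 (adjusted p = 0.185).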

How the data were processed

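Log2 values, 1 per probe set and array, were deposited by the authors. The tools, per the submitters' processing notes, were RMA, which corrects background, normalizes between arrays and summarises probes, and Partek 6.6; their options and order were not given. That the scale is log2 follows from the range, 2.60 to 15.30, with array medians of 7.00 to 7.13. RMA equalises arrays, so a shift of most genes would be hidden, and dim probe sets understate differences. Signal over the filter takes the place of depth: 75.9% to 77.3% of probe sets per array exceeded 5. The number of arrays limits the precision.

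Of 45101 probe sets, 64 were controls and left out, 34945 had 1 gene symbol, 932 several and 9160 none in the platform table; symbols of 34741 matched the reference by Entrez identifier and 0 needed an update. Group means were fitted with limma 3.58.1 (R 4.3.3; 8 residual degrees of freedom, 11.6 after moderation), and differences were tested two-sided, adjusted by Benjamini-Hochberg, and the script was tested on simulated data. Correlations used 100000 resamples in Python 3.11.15 with numpy 2.4.6, and figures matplotlib 3.10.9. Earlier work on these arrays tested 1 probe set per gene; here all probe sets were tested, since the members are probe sets. Members and lists were chosen with earlier results of these data known. All member probe sets are described; of each list the text names up to 4 genes with the smallest p for genotype or diet averaged, and the 6 genes most like the members' mean profile. Listed genes without a probe set of their own in the platform table were not analysed here. The alternatives were 1 probe set or the mean per gene, other filters, cyclic loess, median centring, an intensity trend, fewer groups, blocks by replicate number and leaving out each array.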

Additional observations from a re-analysis of the deposited data

Results flagged for a closer look

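Probe set 1420579_s_at of Cftr differed in opposite directions between the diets: on the normal diet all 3 KO arrays were above all 3 WT arrays, and on the high-fat diet all 3 KO arrays were below all 3 WT arrays. In the fit with no filter the interaction was -0.57 (SE 0.18, unadjusted p = 0.00733, adjusted p = 0.935). The values lay between 4.42 and 5.17, near the lower end of the scale, and the second Cftr probe set, 1427767_a_at, had an interaction of 0.24 (SE 0.11, adjusted p = 0.969), opposite in sign. With 3 arrays a group, single arrays far from the others were not looked for by a rule.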

How the results depend on the processing

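Of 1614 values of duct probe sets under alternatives, 1612 stayed on the same side of the threshold and 2, both of Muc1, passed it, in both cases without KO normal array 3. The sign of the difference turned in 88 of them, and none of the probe sets concerned was called under any alternative of that comparison. The count of duct probe sets called was 0 in each comparison under all alternatives that kept all arrays. Leaving out 1 array, it ranged from 0 to 1 for genotype averaged over both diets and for diet averaged over both genotypes, and was 0 for the other 5 comparisons. Whether the replicate numbers pair the samples is not in the labels. The correlations below cannot settle it, because deviations of 3 arrays from their group mean are not independent of each other. Their size also depended on the probe sets used. Over all tested probe sets, deviations from the group means of KO arrays with the same number correlated between the diets at r from 0.061 to 0.26, 2 of 3 over 0.1, and over the brightest probe set of each gene at 0.288, 0.383 and 0.138, each over 0.1. In WT the values over all probe sets were 0.182, 0.181 and -0.073, and over the brightest probe sets 0.052, 0.099 and -0.156. Over all probe sets, 4 of 6 arrays in both genotypes correlated best with their own number. With the replicate number as a block, 0 duct probe sets were called in each comparison, as with same-numbered KO arrays as a random block (consensus correlation 0.283), and with the block in the KO arrays only, an alternative chosen after seeing the data.

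The count over all probe sets moved more. On the normal diet 476 were called for genotype (33 with only the groups compared, 927 with an intensity trend, 13 without WT normal array 1 to 613 without WT high-fat array 2) and on the high-fat diet 96 (2 and 356 with the same alternatives, 11 without WT high-fat array 1 to 910 without WT high-fat array 2). Averaged over both diets there were 2972 (652 with probe sets averaged per gene to 3704, 1870 with the KO pairs as a random block, with 1226 and 5075 without WT normal array 1 and WT high-fat array 2). For diet there were 18 in WT (0 with the block by replicate number to 32, and 0 without WT normal array 3) and 63 averaged (1 with that block to 228 with the KO pairs random, and 6 without KO high-fat array 3). Of the genotype calls 53.2% were higher in KO on the normal diet, 75.6% after cyclic loess and 80.7% after median centring; on the high-fat diet 37.5%, 47.1% and 58.7%; and averaged 45.3%, 64.5% and 72.2%. What limits the dim probe sets is their signal: Cftr and the second probe sets of Sox9 and Onecut1 lay at or under the filter.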
